A study of Mus musculus with 12 samples.

Results

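The genes of antigen presentation by the major histocompatibility complex (MHC) were followed in livers of ob/ob mice with and without ethionine. Members were all protein-coding genes whose symbol begins with H2- followed by K, D, Q, T, M, A, E or O, together with B2m, Tap1, Tap2, Tapbp, Nlrc5, Ciita, Cd74 and Cd1d1. The rule used symbols only and no measured value. It found 42 genes among the 56205 of the count table, of which 29 belong to class I presentation, 11 to class II and 1 to CD1. The remaining gene, H2-Ke6, carries an H2 name from its place in the complex, encodes a steroid dehydrogenase and no MHC chain, and was kept apart. Of the 42 members, 34 had a count in some library and 26 passed the filter on low counts.

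All mice were ob/ob (B6.Cg-Lep ob/J), which make no functional leptin and become obese with fatty livers, and per the study's methods they were 8 to 10 weeks old when treatment began. The FLO group (n = 6) ate standard chow and the fibrotic group (n = 6) ate the same chow with DL ethionine, an ethyl analog of methionine that is toxic to the liver. The word fibrotic is used here as the group label from the sample titles. For ob/ob mice given ethionine, the study saw no change in Col1a1 and describes microvesicular steatosis with inflammation. The sources differ on the treatment. Most labels give 0.165% ethionine in the water, for 2 weeks where a time is stated, and the growth protocol gives 0.15% by injection. The methods of the study give 0.15% in the water for 1 week. There was no lean or wild-type group, so every value below compares obese, leptin-deficient livers with each other. RNA came from whole livers, 1 library per mouse, and p-values measure the spread between these mice.

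Libraries held between 17815568 and 24814263 counts. FLO replicate 3 stood apart from its labels, which describe male mice only. It held 3773 counts of Xist, the RNA of the inactive X chromosome, against at most 4 in any other library, and 4 counts of the Y-linked gene Ddx3y against at least 556 in the others. Results are therefore also given without it where it mattered. Differential expression was tested across 13416 genes with the edgeR quasi-likelihood test, and calls needed an FDR-adjusted p no higher than 0.01 together with an absolute log2 fold change above 0.5. This called 29.9% of all tested genes, 15.9% higher and 14% lower in fibrotic livers. Scaling by library totals alone, in place of TMM factors, moved the median log2 fold change of all tested genes from 0.03 to 0.20 and the share of calls that were higher from 53.3% to 71.8%, so fold changes are best read relative to all genes.

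MHC class I molecules show peptides made inside a cell to CD8 T cells and natural killer cells. Each consists of a heavy chain, such as H2-K1 or H2-D1, paired with β2-microglobulin (B2m). Peptides cut by the proteasome enter the endoplasmic reticulum through the transporter Tap1/Tap2, and tapasin (Tapbp) holds the empty heavy chain next to the transporter until a peptide fits. Class II molecules, dimers of an α and a β chain (H2-Aa with H2-Ab1), show peptides from engulfed material to CD4 T cells. Their groove is blocked by the invariant chain (Cd74) until H2-DM removes its last fragment, a step that H2-O restrains. Hepatocytes carry class I, whereas class II in liver belongs mainly to Kupffer cells, dendritic cells and B cells. Nlrc5 and Ciita are the coactivators that drive class I and class II genes.

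Promoters of both classes share a module that these coactivators use, in which an element related to TGACG is bound by CREB-type factors and a CCAAT box by NF-Y. Classical class I promoters also carry an NF-κB site in their enhancer A. RefSeq promoter windows of 250 bases before the first RefSeq start listed (GRCm38.p6) were matched for 34 of the 42 members. They were searched on both strands for the CCAAT box and for the letters TGACG of the second element. The same search covered the enhancer A letters GGGGATTCC and a form of the interferon response letters, GAAANNGAA. H2-Ab1, H2-Q1, H2-T24, Cd74, Ciita, Nlrc5, Tap2 and Cd1d1 were not matched. The 6 windows shown belong to the heavy chain that fell and the one that did not (H2-K1 and H2-D1), the light chain (B2m), the heavy chain with the largest rise (H2-Q2), tapasin (Tapbp) and a class II chain (H2-Aa). They read 5′ to 3′ in the direction of transcription, with matches to the 4 motifs in capitals. By the GENCODE gene spans used for coordinates here, the Tapbp and H2-D1 windows lie inside the gene, after its first annotated start. The H2-Q2 window overlaps the annotated start of its gene. Of the windows not shown, those of H2-DMa and H2-DMb2 also lie inside the gene. The windows lie at chr17:34000348-34000597, minus strand, chr17:35262844-35263093, plus strand, chr2:122147437-122147686, plus strand, chr17:35342057-35342306, plus strand, chr17:33919228-33919477, plus strand, and chr17:34287824-34288073, minus strand, in the order shown.
H2-K1 promoter: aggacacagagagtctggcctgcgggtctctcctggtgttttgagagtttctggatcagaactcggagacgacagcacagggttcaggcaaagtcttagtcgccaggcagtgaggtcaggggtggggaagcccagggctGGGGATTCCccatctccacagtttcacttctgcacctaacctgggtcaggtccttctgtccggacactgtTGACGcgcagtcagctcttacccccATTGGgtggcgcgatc
H2-D1 promoter: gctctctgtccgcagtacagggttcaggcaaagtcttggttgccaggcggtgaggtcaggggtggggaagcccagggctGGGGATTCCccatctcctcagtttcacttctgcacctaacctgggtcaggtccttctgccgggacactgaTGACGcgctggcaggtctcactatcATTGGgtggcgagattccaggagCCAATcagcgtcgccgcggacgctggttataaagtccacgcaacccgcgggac
B2m promoter: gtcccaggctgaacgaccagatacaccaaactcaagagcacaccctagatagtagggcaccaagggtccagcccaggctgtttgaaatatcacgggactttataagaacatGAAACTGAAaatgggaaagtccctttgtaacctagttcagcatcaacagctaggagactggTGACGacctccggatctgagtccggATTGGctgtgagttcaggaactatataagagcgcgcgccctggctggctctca
H2-Q2 promoter: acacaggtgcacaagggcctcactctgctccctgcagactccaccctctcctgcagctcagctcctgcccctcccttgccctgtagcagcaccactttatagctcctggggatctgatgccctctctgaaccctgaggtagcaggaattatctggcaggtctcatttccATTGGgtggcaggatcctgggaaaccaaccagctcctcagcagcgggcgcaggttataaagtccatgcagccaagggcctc
Tapbp promoter: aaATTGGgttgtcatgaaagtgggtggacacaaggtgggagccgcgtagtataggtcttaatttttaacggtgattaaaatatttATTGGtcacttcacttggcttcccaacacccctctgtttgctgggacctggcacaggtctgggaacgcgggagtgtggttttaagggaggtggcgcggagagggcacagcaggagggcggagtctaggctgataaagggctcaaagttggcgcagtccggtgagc
H2-Aa promoter: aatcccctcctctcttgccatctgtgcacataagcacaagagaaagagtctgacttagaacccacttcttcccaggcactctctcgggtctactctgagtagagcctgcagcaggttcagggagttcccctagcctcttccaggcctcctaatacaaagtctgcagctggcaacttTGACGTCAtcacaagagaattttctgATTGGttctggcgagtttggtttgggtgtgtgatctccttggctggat

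A CCAAT box was found in 30 of the 34 windows, against 34.5% of 27025 mouse promoter windows of the same length. TGACG was found in 14 of 34, against 17.9%. The 34 include H2-Ke6, which encodes no MHC chain, and the windows named above that lie inside their genes. Some are near-copies, such as H2-M1 and H2-M9, identical at 92.6% of compared bases, so the windows are not independent of each other. The TGACGTCA of H2-Aa reads as TGACG on both strands, so its 2 matches overlap. GGGGATTCC was found in 4 members, H2-K1, H2-D1, H2-Q6 and H2-Q7, against 0.218% of all windows. GAAANNGAA was found in 3 members, B2m, H2-T22 and H2-T23, against 7.16%. Other forms of the interferon response letters were not searched, so a window without a match may still hold such a site. The H2-K1 and H2-D1 windows, among others, hold tttcacttc. On the other strand this has GAA before GAAA, whereas the searched letters have GAAA before GAA. Shifted by 60 bases, the H2-K1 and H2-D1 windows were identical at 166 of 190 bases, or 87.4%, and both held the enhancer A letters and TGACG. The mRNA levels of this pair are compared below. A match to letters is a description of the window and not evidence that a factor binds it.

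Levels per kilobase of transcript, which allow genes to be ranked, put B2m first in FLO livers at 1513 ± 178 CPM per kb (mean ± SD, n = 6). The heavy chains followed, with H2-K1 at 784 ± 65.0, the secreted liver class I molecule H2-Q10 at 586 ± 46.2 and H2-D1 at 333 ± 40.4 CPM per kb. Cd1d1 (139 ± 10.8), Cd74 (76.4 ± 10.2) and H2-T23 (58.8 ± 3.38) were intermediate. H2-Ab1, H2-T22, Tapbp and H2-Eb1 lay together between 20.9 and 29.4 CPM per kb, and Tapbp and H2-Eb1 differed by less than their SDs. The coactivators were scarce, Nlrc5 at 1.65 ± 0.309 and Ciita at 0.219 ± 0.0434 CPM per kb. The longest annotated transcript set each length, so the ranks carry that choice.

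Among the 17 tested class I genes, 4 were called higher (H2-Q1, H2-Q2, Tap2 and Tapbp), against 15.9% of all tested genes, and 2 were called lower (H2-K1 and B2m), against 14%. Their median log2 fold change was 0.03, equal to that of all tested genes at 2 decimals. The class did not move as a block: its most abundant classical heavy chain and its light chain fell, whereas Tapbp and Tap2 rose. H2-Q2 passed the low-count filter only through its fibrotic libraries, so it had to differ to be counted among these 17. In 7 of the 17 the groups did not overlap, against 30.4% of all tested genes. Without FLO replicate 3 the same 6 genes were called.

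H2-K1 (chr17:33996017-34000347, GRCm38), a classical heavy chain that presents peptides to CD8 T cells, fell. Its level in CPM (TMM-scaled counts per 1000000) ran from 503 to 1089 with a median of 854 in fibrotic livers, and from 1241 to 1578 with a median of 1482 in FLO livers. Every fibrotic library lay below every FLO library. The log2 fold change was -0.81 ± 0.15 (SE; adjusted p = 0.000325, edgeR), or 0.572 times the FLO level. B2m (chr2:122147686-122153083), the light chain of all class I molecules, ran from 551 to 1039 CPM (median 850.0) in fibrotic and from 1089 to 1537 CPM (median 1296) in FLO libraries. Here too the groups were separate, with a log2 fold change of -0.67 ± 0.14 (adjusted p = 0.000684, edgeR). Fibrotic replicate 4 was the lowest library for both genes, and both calls remained in each fit that left out 1 library.

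H2-D1 (chr17:35262730-35267499), the other classical heavy chain, ran from 550 to 809 CPM (median 740.1) in fibrotic and from 563 to 803 CPM (median 707) in FLO livers. The 2 ranges covered each other. Its log2 fold change was 0.03, with a 95% interval from -0.21 to 0.27, which leaves out a fall of the size seen for H2-K1. The ratio of H2-K1 to H2-D1, which needs no scaling between libraries, was 1.16 ± 0.155 in fibrotic and 2.11 ± 0.149 in FLO livers (SD, n = 6 each). It ran from 0.915 to 1.35 in the one and from 1.93 to 2.29 in the other, so the groups were separate. This ratio was chosen after the values were seen and is given without a test. Of 51-base stretches of the longest transcript, 51 bases being the read length in the study's methods, 92.4% of those in H2-K1 and 86.3% of those in H2-D1 occurred in no other gene. The gene sharing most with H2-K1 was H2-D1, at 6.09% of its stretches, and the gene sharing most with H2-D1 was H2-Q1, at 7.26%. How reads from shared stretches were assigned is not known here.

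**Figure D1:**
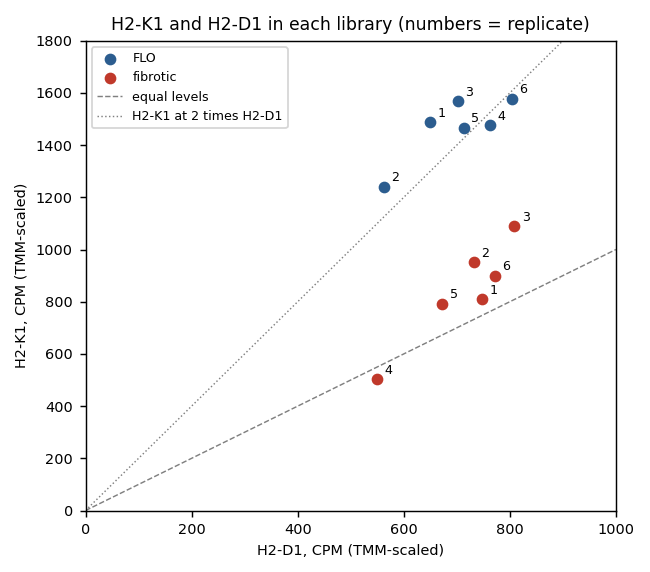
H2-K1 against H2-D1 in each of the 12 libraries, both axes in TMM-scaled CPM from 0, with 1 numbered point per library. FLO points lie along the line at 2 times H2-D1 (ratios 1.93 to 2.29) and fibrotic points near the line of equal levels (0.915 to 1.35), while H2-D1 itself spans the same range in both groups.

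Among the members, the genes of peptide transport and loading, Tapbp, Tap2 and Tap1, all lay higher in fibrotic livers. Tapbp (tapasin; chr17:33915899-33929292) ran from 88.0 to 111 CPM (median 105) in fibrotic livers and from 50.5 to 70.5 CPM (median 66.3) in FLO livers. The groups were apart, at a log2 fold change of 0.69 ± 0.10 (adjusted p = 2.91e-05, edgeR). Tap2 (chr17:34203527-34216321), the other subunit of the peptide transporter, ran from 31.8 to 39.2 CPM (median 38.1) against 19.5 to 24.9 CPM (median 20.8), again without overlap, at 0.76 ± 0.09 (adjusted p = 3.57e-06, edgeR). Its partner Tap1 (chr17:34187553-34197225) ran from 30.7 to 40.0 CPM (median 34.5) against 18.2 to 30.3 CPM (median 26.1). All fibrotic libraries again exceeded all FLO libraries, and the adjusted p was 0.00242, but the log2 fold change of 0.49 ± 0.12 fell just short of the fold minimum. Tap1 was called in each of 6 fits that left out fibrotic replicate 2, 3 or 4 or FLO replicate 4, 5 or 6, at 0.52 to 0.55. Nlrc5 (chr8:94434356-94527272), the class I coactivator, ran from 9.08 to 15.1 CPM (median 13.1) in fibrotic and from 9.50 to 16.3 CPM (median 12.1) in FLO livers. The ranges coincided, with a log2 fold change of 0.01 and a 95% interval from -0.30 to 0.32, and its sign turned under RLE and upper quartile normalization and DESeq2.

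Nonclassical class I genes, the 22 members of the Q, T and M regions that mostly present restricted ligands or act on natural killer and γδ T cells, split by level and direction. Of the 10 that were tested, edgeR called 2 higher, against 15.9% of all tested genes, and 0 lower, against 14%. At an unadjusted p under 0.05, 3 were higher (H2-Q1, H2-Q2 and H2-M3) and 3 lower (H2-Q6, H2-Q7 and H2-T23). DESeq2 and limma-voom also called 2 higher and 0 lower. H2-Q2 (chr17:35342242-35346762) rose most of all members. It had between 29 and 81 counts in each fibrotic library, 310 in all, against 18 in the 6 FLO libraries, of which 1 library had 0 and FLO replicate 3 had 11. Fibrotic livers ranged from 1.56 to 4.10 CPM (median 2.38) and FLO livers from 0 to 0.471 CPM (median 0.0804), with no overlap. No FLO library but replicate 3 held more than 3 counts, and the gene dropped out where every library had to hold 10, so its values describe a gene tested because it was high in fibrotic livers. The fitted log2 fold change was 4.04 ± 0.49 (adjusted p = 6.84e-06, edgeR), a 16.4-fold difference that became 31.7-fold without FLO replicate 3. Even so, H2-Q2 remained a rare transcript, at 2.05 ± 0.785 CPM per kb in fibrotic livers.

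H2-Q1 (chr17:35320405-35325099), its neighbor in the Q region, ran from 52.2 to 76.7 CPM (median 61.5) in fibrotic and from 18.5 to 34.4 CPM (median 27.0) in FLO livers. The groups did not overlap, and the log2 fold change was 1.23 ± 0.14 (adjusted p = 4.47e-06, edgeR). Of its 51-base stretches, 84.1% were found in no other gene, and H2-Q2 shared the most. The other Q genes did not rise. H2-Q10, made by hepatocytes as a soluble molecule, ran from 1079 to 2666 CPM (median 2269) in fibrotic and from 2168 to 2735 CPM (median 2614) in FLO livers, at a log2 fold change of -0.28 ± 0.17 (adjusted p = 0.194, edgeR). Only fibrotic replicates 1 and 4 lay below the lowest FLO library. H2-Q4 differed by -0.06 and turned to 0.11 with library totals alone.

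H2-Q6 and H2-Q7 had similar log2 fold changes of -0.76 ± 0.28 and -0.72 ± 0.28 (adjusted p = 0.0344 and 0.0479, edgeR), neither of them called. Both groups were widely spread. For H2-Q7 the SD was 4.64 CPM in fibrotic and 6.57 CPM in FLO livers, where values ran from 8.84 to 25.9 CPM. Fibrotic replicates 4 and 5 had 1.36 and 1.71 CPM of H2-Q6 and the other 4 fibrotic libraries had between 3.54 and 5.25. H2-Q7 showed the same pair low, at 6.08 and 8.31 CPM against 13.6 to 17.6 in the other fibrotic libraries, and was lowest among FLO livers in replicate 2. It was called lower, at -0.88, when FLO replicate 2 was left out. Of their 51-base stretches, 68.8% for H2-Q6 and 72.0% for H2-Q7 were found in no other gene. H2-Q6 shared most with H2-Q7 (13.7% of its stretches), and H2-Q7 shared most with H2-Q10 (14.9%), which at 2534 CPM in FLO livers was far more abundant than H2-Q7 at 21.1 CPM. Their counts are therefore not fully separable.

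In the T region, H2-T23 encodes Qa-1, which shows leader peptides of other class I chains to natural killer cells. It ran from 101 to 146 CPM (median 129) in fibrotic and from 142 to 169 CPM (median 155) in FLO livers. Only fibrotic replicate 3 reached the FLO range. Its log2 fold change of -0.29 ± 0.09 (adjusted p = 0.0110, edgeR) was not called. H2-T22, a ligand of γδ T cells, differed by 0.17 ± 0.09 (adjusted p = 0.144, edgeR), and 64.9% of its stretches were its own, most of the rest being shared with H2-T10. H2-T24 had at most 1.31 CPM in any library and differed by 0.35 ± 0.33. H2-M3, which presents formylated bacterial and mitochondrial peptides, ran from 2.09 to 3.15 CPM (median 2.697) in fibrotic and from 1.53 to 2.40 CPM (median 1.72) in FLO livers. All 6 fibrotic libraries lay above the FLO median, but the groups touched, and the log2 fold change of 0.54 ± 0.17 (adjusted p = 0.0160, edgeR) was not called. It was called at 0.63 when FLO replicate 4 was left out.

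**Figure D2:**
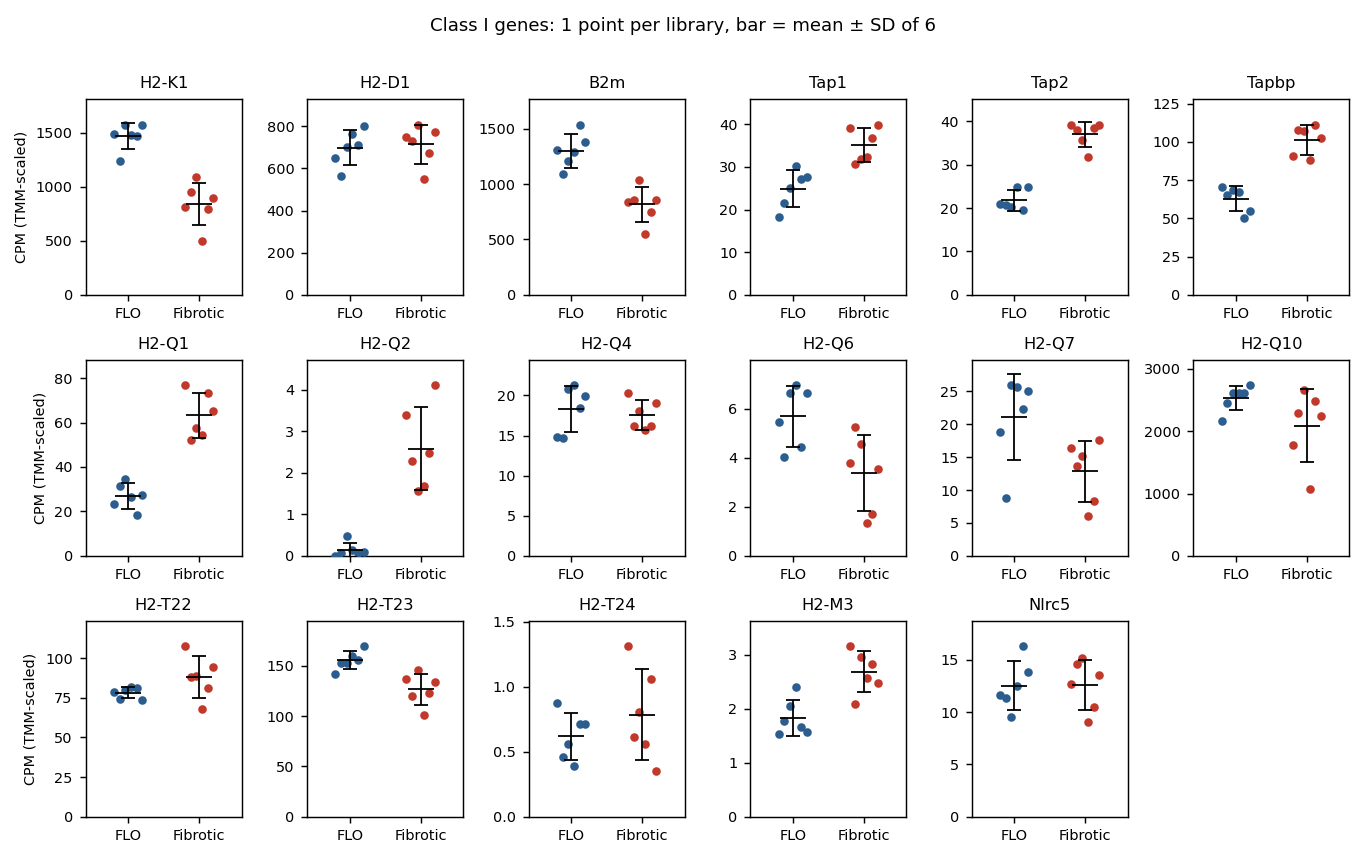
TMM-scaled CPM of the 17 tested class I genes, each on its own linear axis from 0, with 1 point per library (FLO blue, fibrotic red) and bars for the mean ± SD of 6. H2-K1 and B2m lie lower and Tap1, Tap2, Tapbp, H2-Q1 and H2-Q2 higher in fibrotic libraries without overlap, while H2-D1, H2-Q4 and Nlrc5 cover the same range.

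The 8 class I members of the M and T regions without a count in any library were H2-M1, H2-M9, H2-M11, H2-M10.1, H2-M10.3, H2-M10.4, H2-M10.5 and H2-T3. A count of 0 over the pooled libraries allows a level of up to 0.0127 CPM, counting error only. A further 4 class I genes had too few counts to be tested, with 30 in all for H2-M2, 11 for H2-M5, 2 for H2-M10.6 and 1 for H2-M10.2. Of the class II members, H2-DMb2 had 100 counts, H2-Ob 60, H2-Oa 50 and H2-Eb2 7. None of these 8 reached p = 0.05 when the 924 ways of splitting the libraries 6 against 6 were compared (exact permutation, two-sided). H2-M10.2, H2-M10.6 and H2-M5 had counts in at most 4 libraries and could not have reached it under any split. The lowest p was 0.0758, for H2-DMb2 (61 counts in fibrotic and 39 in FLO libraries). Adjusted over the 8 tests, that p was 0.364. H2-O and the second H2-DM β chain are thus barely detectable at this depth.

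None of the 7 tested class II genes was called in either direction by edgeR, against 29.9% of all tested genes, and 0 of them had an unadjusted p under 0.05. DESeq2 called 0 of 10 and limma-voom 0 of 7. All 7 log2 fold changes lay between 0.08 and 0.26, with a median of 0.15 against 0.03 for all genes. In each of them the groups overlapped. With adjusted p at most 0.05 and no fold minimum, which called 52.1% of all tested genes, the class II count stayed at 0 of 7, and class I reached 11 of 17.

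H2-Aa (chr17:34282744-34287823), the α chain of the class II molecule I-A, ran from 27.0 to 47.1 CPM (median 39.0) in fibrotic and from 23.5 to 39.1 CPM (median 35.6) in FLO livers. Its β chain H2-Ab1 (chr17:34257689-34269419) ran from 25.4 to 53.0 CPM (median 37.7) against 27.8 to 39.8 CPM (median 37.7). H2-Eb1 (chr17:34305867-34316674), whose α partner is a pseudogene in this strain, ran from 25.3 to 49.7 CPM (median 38.0) against 28.3 to 45.1 CPM (median 33.9). For all 3 the groups overlapped, the highest library was fibrotic replicate 6, and the SD was larger in the fibrotic group. Their log2 fold changes were 0.16, 0.09 and 0.08, with 95% intervals from -0.13 to 0.46, from -0.21 to 0.39 and from -0.23 to 0.39. The values of H2-Ab1 and H2-Eb1 turned to -0.03 and -0.02 without fibrotic replicate 6.

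Cd74, the invariant chain, was the most abundant class II gene per length. It ran from 89.2 to 158 CPM (median 132) in fibrotic and from 86.4 to 127 CPM (median 108) in FLO livers, at a log2 fold change of 0.26 ± 0.13 (adjusted p = 0.0957, edgeR). In all, 5 of 6 fibrotic libraries lay above the FLO median. The peptide exchanger H2-DM was rarer. H2-DMa (chr17:34119541-34139101) ran from 3.11 to 6.55 CPM (median 5.21) against 3.45 to 5.51 CPM (median 4.85), and H2-DMb1 (chr17:34153072-34160230) from 2.85 to 6.79 CPM (median 5.24) against 3.39 to 5.11 CPM (median 4.99). Their log2 fold changes of 0.11 ± 0.19 and 0.15 ± 0.18 were within error of 0. Ciita (chr16:10480059-10528418), the class II coactivator, ran from 0.906 to 2.23 CPM (median 1.40) against 1.07 to 1.78 CPM (median 1.26), at 0.18 ± 0.26. Fibrotic replicate 2 had the lowest value of the fibrotic group in all 7 class II genes but Ciita.

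**Figure D3:**
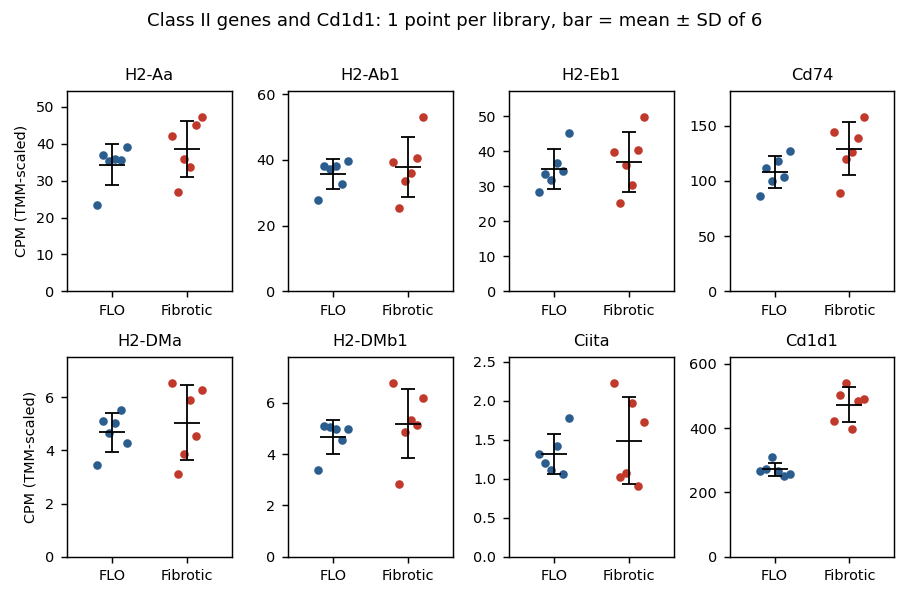
TMM-scaled CPM of the 7 tested class II genes and Cd1d1, each on its own linear axis from 0, with 1 point per library (FLO blue, fibrotic red) and bars for the mean ± SD of 6. The groups overlap in all 7 class II panels and are separate for Cd1d1 (397 to 541 against 251 to 311 CPM).

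Class I and class II were set side by side as summed levels, described without a test since the genes were chosen. The class I heavy chains summed to 3964 ± 862 CPM in fibrotic and 5012 ± 360.0 CPM in FLO livers (SD, n = 6), a log2 difference of -0.37 that shrank to -0.23 without fibrotic replicate 4 and to -0.19 with library totals alone. That library had 2385 CPM, the lowest of the 12. The secreted H2-Q10 alone gave a mean of 2091 CPM of this class I sum in fibrotic and 2534 CPM in FLO livers. H2-K1 gave 841 and 1470 CPM. The class II chains summed to 113 ± 24.7 and 105 ± 14.6 CPM, a log2 difference of 0.09 that became 0.27 with library totals alone and ran from 0.0075 (without fibrotic replicate 6) to 0.197 (without fibrotic replicate 2) when 1 library was left out. With H2-Q10 included, class I heavy chains therefore exceeded class II chains by 36.4 ± 11.9 times in fibrotic and 48.3 ± 5.58 times in FLO livers. Fibrotic replicates 2 and 3 had ratios of 55.0 and 46.4, inside the FLO range of 41.9 to 57.7, and the other 4 lay below it.

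**Figure D4:**
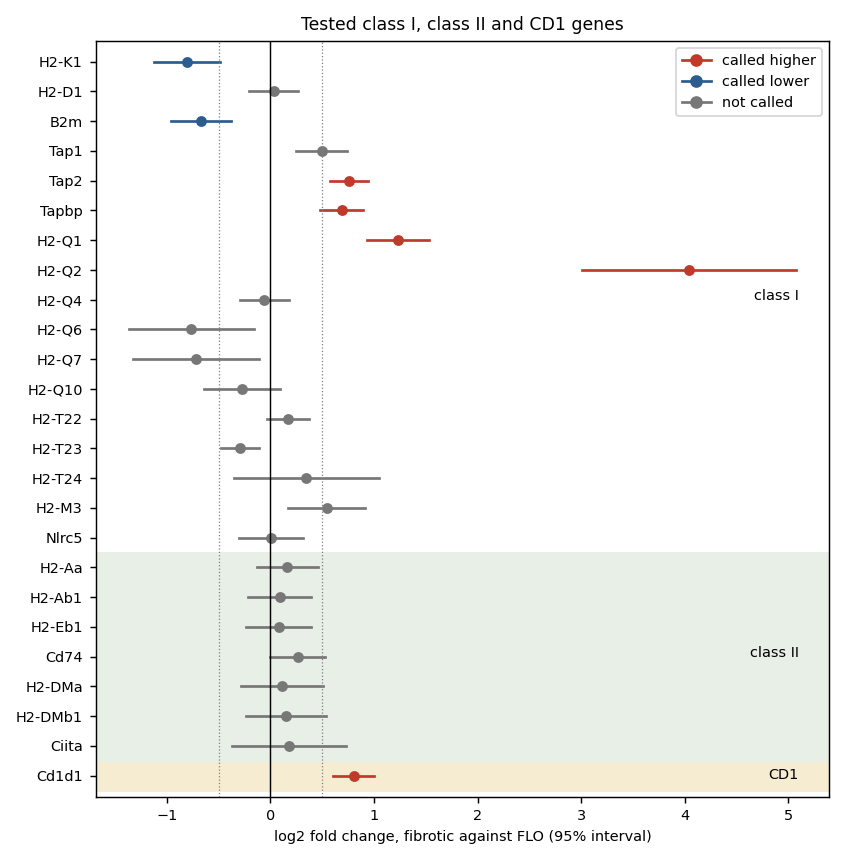
Log2 fold change, fibrotic against FLO, of the 25 tested class I, class II and CD1 genes, with 95% intervals and dotted lines at -0.5 and 0.5. Class I runs from -0.81 (H2-K1) to 4.04 (H2-Q2), whereas all 7 class II genes sit between 0.08 and 0.26.

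Cd1d1 (chr3:86995834-86999441) presents lipids to natural killer T cells, which are abundant in mouse liver. It pairs with B2m as class I chains do, but rose where B2m fell. It ran from 397 to 541 CPM (median 488) in fibrotic and from 251 to 311 CPM (median 267) in FLO livers. The groups were separate, the log2 fold change was 0.80 ± 0.09 (adjusted p = 4.90e-06, edgeR), and without FLO replicate 3 it was 0.84. Of its 51-base stretches 74.5% were its own and the rest were shared with Cd1d2, which is annotated as a pseudogene. H2-Ke6, the dehydrogenase gene, was called lower at -0.82 ± 0.11 (adjusted p = 2.13e-05, edgeR), but 96.2% of its stretches also belong to the overlapping gene Gm20427.

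**Figure D5:**
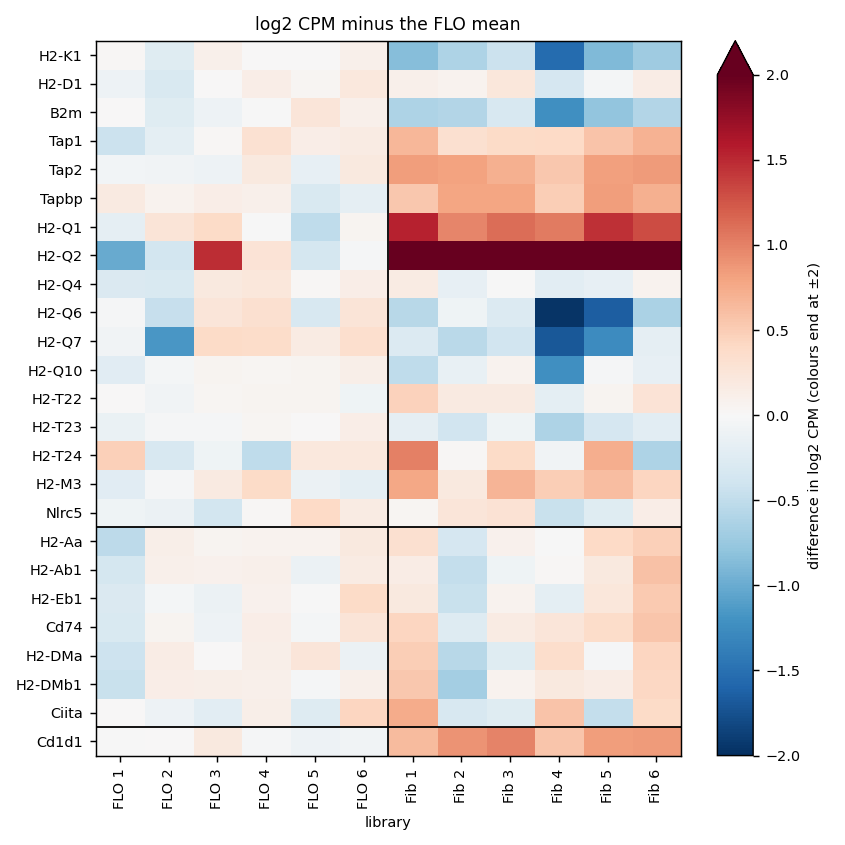
Difference of log2 CPM (prior count 2) from the FLO mean for the 25 tested class I, class II and CD1 genes (rows, separated by lines) in the 12 libraries (columns). Colors end at ±2, which the H2-Q2 row passes with values up to 4.35, and fibrotic replicate 4 shows the deepest blue in H2-K1, B2m, H2-Q6, H2-Q7 and H2-Q10.

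Other genes of the pathway were taken from lists by function, whose counts are to be read against the 15.9% of all tested genes called higher and the 14% called lower. Of the 5 immunoproteasome genes, 1 was called higher, the catalytic subunit Psmb8, at 0.71 ± 0.11 (adjusted p = 5.69e-05, edgeR), and 0 were called lower. Of the 5 chaperones and trimming enzymes of peptide loading, 2 were called lower, calreticulin (Calr) at -0.52 ± 0.12 and the oxidoreductase Pdia3 at -0.72 ± 0.09 (adjusted p = 0.00165 and 1.34e-05, edgeR), and 0 were called higher. Both belong to the complex in which Tapbp, which rose, works. The list had a median of -0.30. Calr, but not Pdia3, lost its call without fibrotic replicate 4 or FLO replicate 1 and with library totals alone. These 2 proteins also fold other glycoproteins of the endoplasmic reticulum.

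Of the 6 genes of class II peptide supply and turnover, 2 were called higher and 1 lower. The lysosomal thiol reductase Ifi30 rose at 1.04 ± 0.11, and so did the ubiquitin ligase March1, which removes class II from the surface, at 0.996 ± 0.22. March8, a related ligase, fell by 0.70 on the log2 scale, with an SE of 0.08. Of the 12 transcription factors of MHC genes, Rfx5, which binds the promoters of both classes, was called higher at 0.85 ± 0.12, Irf8, a factor of the myeloid lineage, higher at 0.58 ± 0.15, and Irf2 lower at -0.96 ± 0.12. The Irf8 call was lost without fibrotic replicate 4 or 5 or FLO replicate 1, 2 or 4. The 9 others, among them NF-Y subunits and Creb1, were not called. The NF-Y subunit Nfyc was higher at 0.46 ± 0.08 (adjusted p = 0.00016, edgeR) without overlap, short of the fold minimum. Nfya and Nfyb differed by -0.07 and -0.11. Of the 6 costimulatory genes 3 were tested and 0 were called by edgeR, DESeq2 or limma-voom or had an unadjusted p under 0.05.

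Of the 17 interferon-stimulated genes, 4 were called higher, against 15.9% of all tested genes, and 2 lower, against 14%. Both edgeR counts were near those shares. The list median was 0.13. DESeq2 and limma-voom each called 6 higher and 3 lower, and at an unadjusted p under 0.05 (edgeR) 8 were higher and 3 lower. Usp18 and the ubiquitin-like modifier Isg15 rose at 2.28 ± 0.27 and 1.68 ± 0.15, and Rsad2 and Igtp at 0.97 ± 0.26 and 0.53 ± 0.14. The guanylate-binding proteins Gbp2 and Gbp7, targets of interferon γ, fell by 0.90 and 0.64 on the log2 scale. Gbp7 and Igtp each lost the call in most fits that left out 1 library (10 and 8 of 12), and Rsad2 without FLO replicate 1, 2 or 3. The chemokines Cxcl9 and Cxcl10 differed by -0.17 ± 0.18 and -0.46 ± 0.36 and were not called.

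Markers of the cells that carry these molecules moved as follows, and their part in the results above was not tested. In bulk RNA, fewer cells of a type and less RNA per cell cannot be told apart. Of the 8 Kupffer cell markers, 6 were called higher (Clec4f, Vsig4, Cd5l, Marco, Adgre1 and Cd163, from 0.54 to 1.63), against 15.9% of all tested genes, and 0 lower, with a list median of 0.76. Their summed level ran from 210.1 to 402 CPM in fibrotic and from 147 to 187 CPM in FLO livers, without overlap. Of the 10 macrophage markers, 9 were tested and 3 were called higher, Csf1r at 0.80, Lyz2 at 0.76 and Cx3cr1 at 1.36. The class II genes, which these cells express, were not called over the same libraries. Clec4f lost its call without fibrotic replicate 1 or FLO replicate 6, and Marco and Cx3cr1 lost theirs in 6 and 8 of the 12 fits that left out 1 library.

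The lists of other cell types are likewise set against 15.9% of all tested genes called higher and 14% lower. Dendritic cell markers summed to 8.10 to 10.5 CPM in fibrotic and 6.40 to 10.7 CPM in FLO livers, and 0 of the 3 tested of 8 were called. B cell markers summed to 0.749 to 1.94 against 0.406 to 2.25 CPM, and none of the 5 passed the filter. T and NK cell markers summed to 1.92 to 5.67 against 1.48 to 5.92 CPM, with 0 called of the 2 tested of 8. DESeq2 and limma-voom also called 0 in these 3 lists, and 0 tested genes had an unadjusted p under 0.05. Each of their markers had counts in some library. Of the 7 sinusoidal endothelial markers, 1 was called lower, Kdr at -0.58, and the sums ran from 184 to 234 against 232 to 265 CPM. Of the 6 cholangiocyte markers, 4 were called higher (Epcam, Sox9, Spp1 and Cldn4, of which Epcam and Spp1 lost the call in 5 and 9 of the 12 fits without 1 library), with sums from 81.7 to 278 against 47.1 to 88.2 CPM. Of the 8 hepatocyte markers, Apoa1 and Serpina1c were called lower at -1.68 and -0.97 and Cps1 higher at 0.73, a call lost in 8 of those 12 fits, with a list median of -0.11. Hepatocyte sums ran from 52659 to 89562 CPM in fibrotic and from 75945 to 91533 CPM in FLO livers.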

How the data were processed

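Raw gene counts from polyA RNA of 12 whole mouse livers were analyzed, 1 library per mouse. The authors deposited 1 table of raw counts, whole numbers for each Ensembl identifier and not normalized. The submitters' processing notes name bcl2fastq, STAR 2.7.3a and mm10, and PISCES is the quantifier named in the study's methods. The mouse annotation and the strand setting are not given in the sources used here, so overlapping and antisense genes may share counts. Symbols, lengths and coordinates came from GENCODE M21 (GRCm38), which named 51745 of 56205 identifiers, and identifiers without a symbol held 0.0587% of counts. Groups and replicate numbers came from sample titles.

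Members, gene lists and tests were chosen with earlier results of these data known. All members passing the low-count filter were named, and list genes were named where called. Counts were tested in R 4.3.3 with edgeR 4.0.16 (filterByExpr, TMM, robust quasi-likelihood fit, Benjamini-Hochberg adjustment over 13416 genes, no covariates), checked first on simulated data. Calls needed an adjusted p of at most 0.01 and an absolute log2 fold change over 0.5. CPM are TMM-scaled counts per 1000000, and log2 CPM used a prior count of 2. The SE is the absolute log2 fold change divided by the square root of F. Members removed by the filter were compared by exact permutation. Total counts ran from 17815568 to 24814263 per library, at which 3 counts correspond to between 0.121 and 0.168 CPM. Libraries of a group differed by more than sampling noise in all 30 pairs (chi-square per degree of freedom at least 10.7). Promoter windows came from a RefSeq table of GRCm38.p6, in which the first start listed was used. Alternatives were RLE and upper quartile factors, library totals alone (added after the data were examined), other low-count filters, DESeq2 1.42.0, limma-voom (limma 3.58.1), a replicate block, a relaxed threshold and leaving out each library.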

Additional observations from a re-analysis of the deposited data

Results flagged for a closer look

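Dixon's test on the 6 log2 values of each group, for each tested member and each summed level, was past its 95% critical value in 4 of 60 groups, where chance flags about 1 in 20. All 4 were single low FLO libraries. FLO replicate 2 had 1241 CPM of H2-K1, a classical class I heavy chain, against 1467 to 1578 CPM in the other FLO libraries, and it still lay above every fibrotic library. The same library had 8.84 CPM of H2-Q7 against 18.9 to 25.9 CPM in the others. FLO replicate 1 had 23.5 CPM of the class II chain H2-Aa against 35.3 to 39.1 CPM, and 3.39 CPM of H2-DMb1, which removes the invariant chain fragment, against 4.56 to 5.11 CPM.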

How the results depend on the processing

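The calls of H2-K1, B2m, Tap2, Tapbp, H2-Q1, Cd1d1 and H2-Ke6 kept their direction and side of the thresholds in all 20 other fits. That of H2-Q2 was kept in all 19 in which it passed the filter. H2-Q2 passed the main filter only through its fibrotic libraries, so its kept calls and its range add no support. Log2 fold changes ranged from -0.89 to -0.65 for H2-K1, -0.75 to -0.51 for B2m, 0.73 to 0.93 for Tap2, 0.63 to 0.86 for Tapbp, 1.14 to 1.41 for H2-Q1, 0.77 to 0.97 for Cd1d1 and 3.80 to 4.99 for H2-Q2. No class II gene was called in any fit. With adjusted p at most 0.05 and no fold minimum, 6994 genes were called in place of 4012, and 5 class I members rather than 2 were lower. Library totals alone moved the class II median from 0.15 to 0.34, and leaving out 1 library each moved it between 0.059 and 0.247. They also turned H2-Q4 to 0.11, called Tap1 and H2-M3 (0.67 and 0.72), and ended the calls of Calr, Kdr and Gbp7. Small differences changed sign elsewhere. Nlrc5 turned to -0.0099 with RLE factors, -0.022 with upper quartile factors and -0.0075 with DESeq2, and ran from -0.063 to 0.097 when 1 library was left out. Without 1 library, H2-D1 ran from -0.027 to 0.104, H2-Ab1 from -0.026 to 0.184 and H2-Eb1 from -0.022 to 0.168. The cause was not tested.

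Replicate numbers are shared by both groups, but same-numbered libraries did not deviate together (correlations from -0.16 to 0.10), so the numbers were not treated as pairs. The fit with the replicate block called 3780 genes, added Tap1 (0.50) to the class I calls and left class II at 0. Of the 32 called list genes, 11 lost the call without some library. Whole-liver RNA at this depth gives few counts for H2-O, H2-DMb2 and the H2-M genes other than H2-M3. No difference was detected there, and differences could have been missed. Reads shared among Q and T genes limit single-gene values.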

Other observations

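Genes with an H2 symbol outside the rule, all annotated as pseudogenes, numbered 11, of which 5 were tested. EdgeR and limma-voom called 0 of these, and 3 had an unadjusted p under 0.05 (H2-K2 and H2-Q5 lower, H2-T10 higher). DESeq2, which also tested H2-M6-ps (109 counts in all), called that one higher at 1.76 ± 0.52 (SE; adjusted p = 0.00253, DESeq2). H2-T-ps was the most counted of them, with 7152 counts, and H2-K2 had 2518. The class I to class II ratio was lowest in fibrotic replicate 4, at 23.8, which also had the lowest H2-K1 to H2-D1 ratio, at 0.915, while its H2-Aa level of 33.7 CPM lay inside the FLO range. H2-Q2 and H2-Q1, the 2 heavy chains called higher, lie next to each other in the Q region, whereas H2-Q4, H2-Q6, H2-Q7 and H2-Q10 of the same region were not called. Whether the rise of this pair has a shared source was not tested.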
